A study of Mus musculus with 24 samples.

Results

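A stretch of mouse chromosome 4 around Stmn1, from 132 to 136 Mb (mm10), holds 100 genes that were expressed in the cortex libraries examined here. The genes were chosen by position and level: a start in that window, a count above 10 in at least 6 of the 24 libraries, and a name outside the ribosomal, respiratory chain and ion channel families. Of 43346 rows of the count table, 164 started in the window, 62 of them fell below the count rule, and 2 were left out by name. The window itself was proposed from measured values, since Stmn1, Sfn, Map3k6, Hmgn2 and Sepn1 stood out when induced and control R47H mice were compared. Values of that comparison are therefore a description from which nothing is read. At the edge of the count rule, Gm22767 (6 libraries) and Kdf1 (7 libraries) lay just inside, while Aunip, Trim63 and Mir5122 (5 libraries each) and Gm23634 (4 libraries) lay just outside. Of the 100 genes, 81 were protein coding, and 99 passed the test's own filter on low counts.

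Poly-A RNA of the cortex was sequenced from C57BL/6 mice, 1 library per mouse, with 6 mice (3 males and 3 females) in each of 4 groups. WT mice had the genotype TREM2-WT+/+; Cx3cr1CreER/+ and R47H mice TREM2-R47H+/+; Cx3cr1CreER/+, so all mice carried a tamoxifen-dependent Cre under a promoter active in microglia and related myeloid cells. Induced mice (WT_induced, R47H_induced) received tamoxifen, which switches on the TREM2 construct, and control mice (WT_control, R47H_control) received corn oil. Mice given tamoxifen without Cre were not analysed here, so tamoxifen and induction cannot be told apart. The labels give neither ages nor litters. R47H is a variant of the microglial lipid receptor TREM2 that is linked to the risk of Alzheimer's disease.

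Neighbouring genes on a chromosome share local chromatin and are inherited together, and each may be read through its own promoter. Stmn1 encodes stathmin, a phosphoprotein that takes apart microtubules and is abundant in young neurons. Around it lie genes of unrelated function: Hmgn2 encodes a protein that binds nucleosomes and loosens chromatin, Sfn the 14-3-3 protein sigma, Map3k6 a stress-activated kinase of the ASK family, and Sepn1 (now Selenon) a selenoprotein of the endoplasmic reticulum.

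The 5 genes lay between 133240818 and 134552166 on chromosome 4. Map3k6 spanned 133240818 to 133252929, Sfn 133600556 to 133602168, Hmgn2 133964738 to 133968650, Stmn1 134468320 to 134473843 and Sepn1 134537892 to 134552166. The 250 bases before the RefSeq start (GRCm38.p6) are shown for the 4 of them that could be matched to RefSeq promoters, because the results below turn on these genes, which lie apart in the window. Capitals mark promoter motifs that were searched on both strands. The GC box was spelled GGGCGG. The CCAAT box was searched by the letters of its name. The TATA box was searched for as TATAAA. For the E-box the palindrome CACGTG was used. In Hmgn2 a GC box and the E-box overlap, and the CCAAT box runs over the start.
Map3k6, chr4:133240568-133240817, plus strand: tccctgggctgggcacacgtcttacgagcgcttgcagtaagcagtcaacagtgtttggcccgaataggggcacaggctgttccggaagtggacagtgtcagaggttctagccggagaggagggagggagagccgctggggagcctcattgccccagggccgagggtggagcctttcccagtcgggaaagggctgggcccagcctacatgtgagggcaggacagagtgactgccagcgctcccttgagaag
Sfn, chr4:133602169-133602418, minus strand: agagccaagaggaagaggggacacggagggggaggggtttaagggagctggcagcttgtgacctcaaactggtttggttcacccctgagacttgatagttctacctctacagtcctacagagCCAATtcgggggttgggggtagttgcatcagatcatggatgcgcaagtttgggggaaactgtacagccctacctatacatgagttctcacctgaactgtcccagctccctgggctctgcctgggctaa
Hmgn2, chr4:133967992-133968241, minus strand: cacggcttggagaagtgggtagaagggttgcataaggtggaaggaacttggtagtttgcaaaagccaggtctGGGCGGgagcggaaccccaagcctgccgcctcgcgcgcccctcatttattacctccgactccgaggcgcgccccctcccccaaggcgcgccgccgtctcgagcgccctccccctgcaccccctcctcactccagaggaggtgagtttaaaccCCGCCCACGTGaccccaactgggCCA
Sepn1, chr4:134552167-134552416, minus strand: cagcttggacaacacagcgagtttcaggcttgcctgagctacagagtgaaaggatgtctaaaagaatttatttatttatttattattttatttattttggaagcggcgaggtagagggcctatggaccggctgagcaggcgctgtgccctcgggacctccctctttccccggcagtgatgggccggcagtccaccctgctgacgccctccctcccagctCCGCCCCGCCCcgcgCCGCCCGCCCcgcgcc
No motif was present in all 4: Map3k6 held none of them, Sfn a CCAAT box, Hmgn2 GC boxes, a CCAAT box and an E-box, and Sepn1 GC boxes. Over 300-base windows that also take in the first 50 bases after the start, a GC box was present in 64.9% of the 74 matched promoters of the region and in 35.9% of all 27025 RefSeq promoters, a CCAAT box in 43.2% and 37.9%, a TATA box in 6.76% and 14.2%, and an E-box in 12.2% and 7.24%. The median GC content was 60.7% in the matched promoters of the region and 52.7% in all RefSeq promoters. Members had passed the count rule in cortex, while all RefSeq promoters include genes not expressed there, so the shares are not a trait of the region alone. The motif matches describe letters and not factor binding.

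Library totals ran from 27933505 to 56082520 counts. Summed neuronal markers stood at 5190 to 5650 CPM (counts relative to the scaled library total) in the 24 libraries, while choroid plexus markers ran from 17.1 to 620 CPM. Mouse Trem2 lay at 5.41 to 9.32 CPM over all libraries, with group means from 6.40 ± 0.367 to 7.89 ± 0.974 (SD, n = 6). It cannot check the labels, because the sources used here do not say from which species the construct comes. WT_induced replicate 6 stood apart from its group: its 5 microglial markers summed to 287 CPM against at most 216 in the other WT_induced libraries, and its 5 proliferation markers to 14.1 against at most 5.57. R47H_induced replicate 3 was the highest or lowest of its group in 38 of 99 members (38.4%, against 26.0% of all tested genes). For WT_induced replicate 6 that was 54 of 99 (54.5%, against 45.4%). Both counts include the genes that proposed the region and are a description. The counts of slopes below are given with and without WT_induced replicate 6 and R47H_induced replicate 3.

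The levels of Stmn1 divided the R47H mice into libraries near the WT level and libraries below it. Stmn1 stood at 114 to 123 CPM in WT_control (median 119). In WT_induced 5 libraries lay at 110 to 120 CPM and replicate 6 at 86.1. In R47H_control, replicates 1 and 3 (123 and 118 CPM) lay within the WT_control range and the other 4 at 94.5 to 103, and in R47H_induced 5 libraries lay at 69.5 to 75.9 with replicate 3 at 98.5. Every R47H_induced library was thus below every WT_control library, and replicate 3 was among the levels of the 4 lower R47H_control libraries.

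Hmgn2, about 0.5 Mb upstream of Stmn1, ordered the libraries in much the same way. Its level was 18.9 to 22.5 CPM in WT_control and 22.2 to 23.3 in WT_induced apart from replicate 6 at 17.2. R47H_control replicates 1 and 3 had 24.3 and 22.8 CPM and the other 4 had 15.8 to 17.7, while R47H_induced had 11.2 to 12.8 apart from replicate 3 at 18.2. The same 2 R47H_control libraries were high, and the same single library stood apart in each induced group.

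Sytl1, a Rab27-binding protein of vesicle transport that lies next to Map3k6 (133253090 to 133263113), showed the opposite order. It stood at 0.700 to 1.13 CPM in WT_control and 0.674 to 1.24 in WT_induced apart from replicate 6 at 2.07. R47H_control replicates 1 and 3 had 1.14 and 1.51 CPM and the other 4 had 2.44 to 2.77. R47H_induced had 3.34 to 4.66 CPM apart from replicate 3 at 2.09. Here the R47H_control libraries that were highest for Stmn1 were lowest, and replicate 3 of R47H_induced lay below its group.

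Sfn and Map3k6 were lowest in R47H_induced, with less distinct steps between libraries. WT_control had 0.969 to 1.26 CPM of Sfn (median 1.12) and WT_induced 0.479 to 1.25 (median 0.931), with the lowest value in replicate 6. R47H_control had 0.602 to 1.10 CPM (median 0.842), and R47H_induced had 0.204 to 0.558 (median 0.410), with the highest value in replicate 3. R47H_induced lay below every library of both control groups. Of Map3k6, WT_control had 2.99 to 3.73 CPM (median 3.16) and WT_induced 2.35 to 3.47 (median 2.95), again lowest in replicate 6. R47H_control had 1.64 to 2.99 CPM of it (median 2.56) and R47H_induced 0.889 to 2.26 (median 1.56), again highest in replicate 3. The R47H groups overlapped for Map3k6, and R47H_induced lay below all WT libraries.

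Sepn1 went the other way. WT_control had 15.5 to 19.1 CPM (median 17.9) and WT_induced 16.5 to 19.8 (median 17.3), with the highest value in replicate 6. R47H_control had 16.8 to 20.5 CPM (median 19.7), lowest in replicate 1, and R47H_induced 20.2 to 23.9 (median 23.7), where replicates 1 and 3 were the lowest. All R47H_induced libraries lay above all WT libraries.

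**Figure D1:**
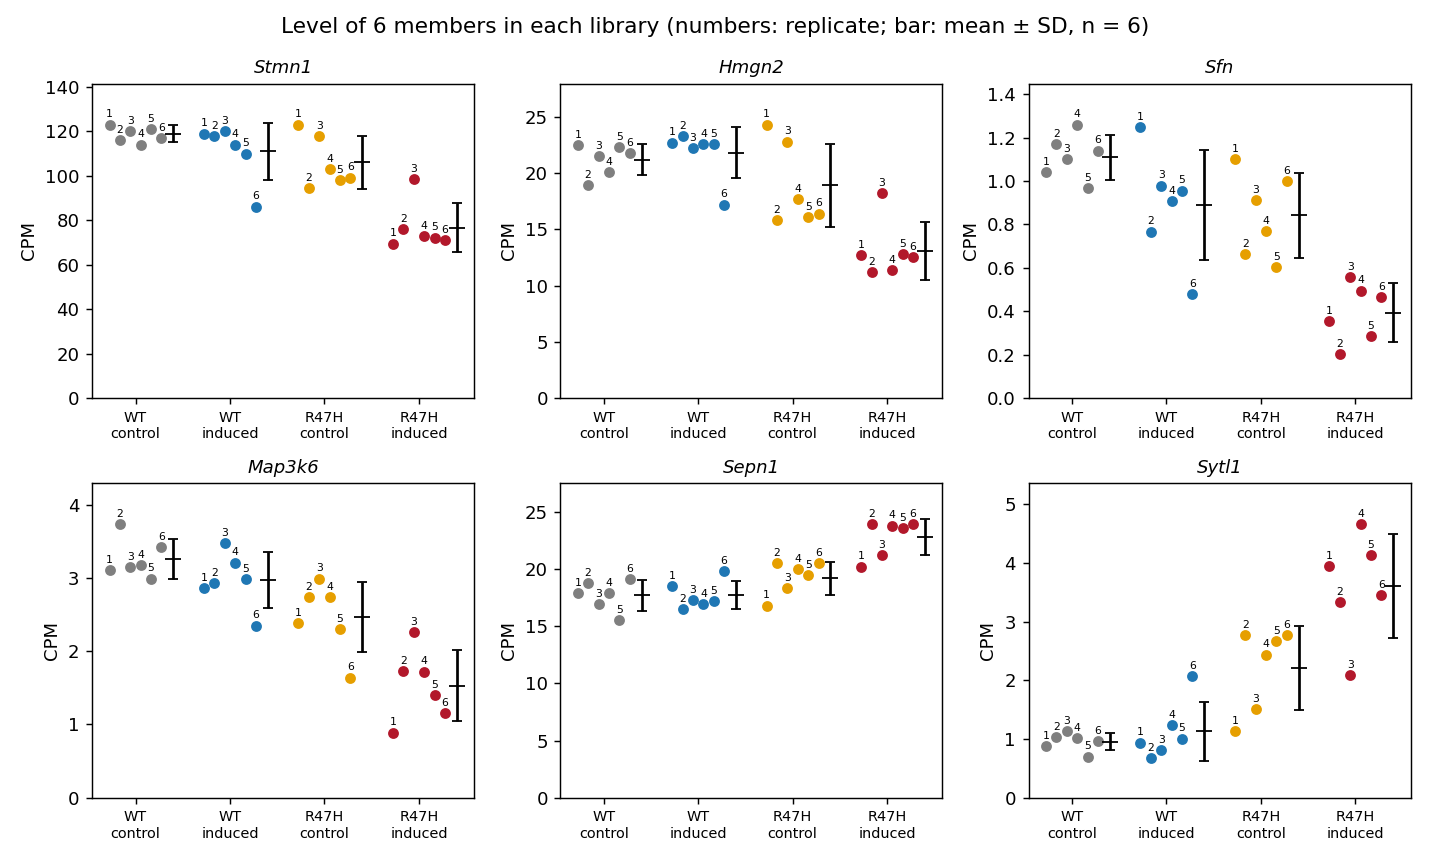
CPM (vertical axis, from 0) of 6 genes of the region in each of the 24 libraries, by group, with the replicate number beside each point and the group mean ± SD (n = 6) as a bar. Stmn1, Hmgn2, Sfn and Map3k6 were lowest and Sepn1 and Sytl1 highest in R47H_induced, with WT_induced replicate 6 and R47H_induced replicate 3 displaced for Stmn1, Hmgn2 and Sytl1.

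Whether libraries of one group split alike over neighbouring genes was tested with the slope of each gene on Stmn1, using only how far Stmn1 lay from its group mean in each library. This slope does not use the differences between group means, but it was chosen with earlier results of these libraries known. Stmn1, the gene it is taken on, and Hmgn2 are among the genes that proposed the region. A slope of 1 means that a gene doubled where Stmn1 doubled, and Stmn1 is left out of the counts. Over 24 libraries 2 of 98 tested members were called at an adjusted p below 0.05 (2.04%, against 0.188% of all tested genes), namely Hmgn2 with a slope of 1.23 ± 0.13 (SE; adjusted p = 6.83e-06) and Sytl1 with -2.57 ± 0.31 (adjusted p = 4.06e-05; edgeR's quasi-likelihood test, Benjamini-Hochberg adjustment). At an unadjusted p below 0.05 there were 28 of 98 (28.6%, against 6.44% of all genes).

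Hmgn2 and Sytl1 also stood apart when WT_induced replicate 6 was left out. Their slopes were then 1.38 ± 0.16 (adjusted p = 2.09e-05) and -2.52 ± 0.39 (adjusted p = 0.00457; edgeR), and they were the 2 genes called among all tested genes. At an unadjusted p below 0.05 there were 15 of 98 members (15.3%, against 3.46%), 11 of them among the 28 above. Without R47H_induced replicate 3 there were 25 of 98 (25.5%, against 7.15%), with 6 called, beside 179 of all 19823 tested genes. Without both libraries there were 6 of 98 (6.12%, against 4.48%), a share near the background, with 2 called, beside 3 of all 19771 tested genes. Among the 15 without WT_induced replicate 6, Map3k6 had a slope of 1.14 ± 0.41 and Sepn1 of -0.38 ± 0.16. Aim1l, a crystallin-domain gene, had -1.23 ± 0.51, Pithd1 -0.27 ± 0.12, and Nudc, a co-chaperone of the dynein motor, -0.23 ± 0.11. None of these passed adjustment. Hmgn2, Map3k6 and Sepn1, like Stmn1 itself, are among the genes that proposed the region, from R47H libraries that are also in these fits. Their slopes and the counts are therefore a description and no independent support for the region.

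**Figure D2:**
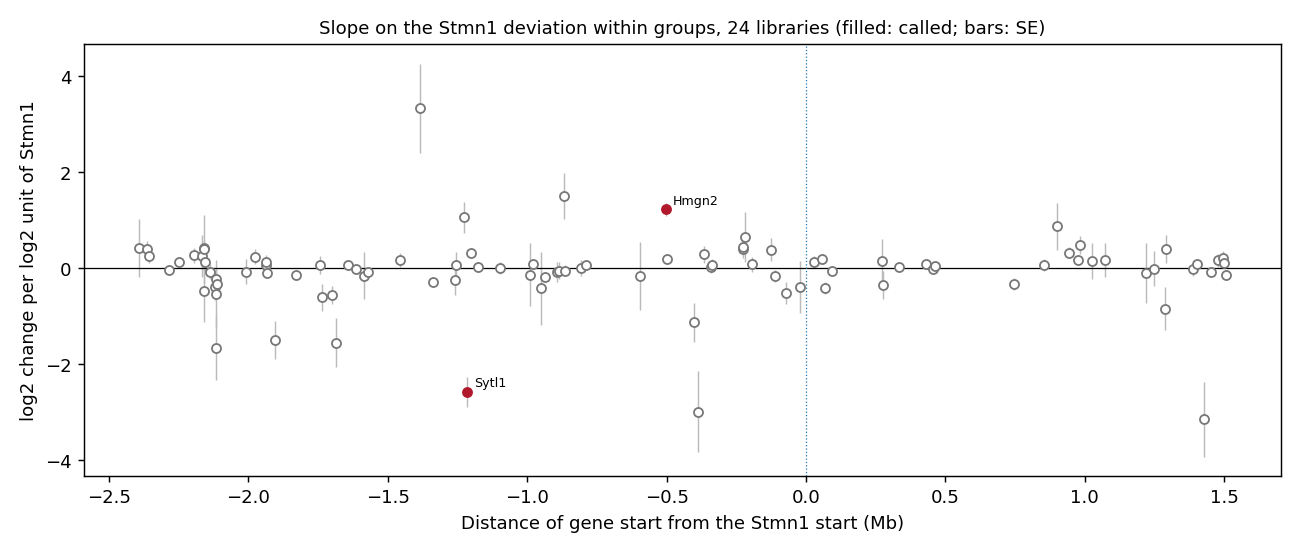
Slope of each tested member on Stmn1 within groups, as log2 change per log2 unit of Stmn1 (points, with SE as bars), against the distance of the gene's start from the Stmn1 start in Mb, over 24 libraries. The 2 filled points, Hmgn2 at 1.23 and Sytl1 at -2.57, passed adjustment over all genes, and most other members lay near 0.

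In the 12 R47H libraries alone, Hmgn2 (slope 1.42 ± 0.18, adjusted p = 0.00527) and Sytl1 (-2.46 ± 0.38, adjusted p = 0.0339; edgeR) were 2 of 97 members called (2.06%, against 0.0106% of all genes). No gene elsewhere was called in that fit. The region was proposed from these same 12 libraries, in which Stmn1 and Hmgn2 stood out, so the calls are no independent support for it. At an unadjusted p below 0.05 there were 12 of 97 members (12.4%, against 2.91%), and 6 of 97 without R47H_induced replicate 3 (6.19%, against 3.17%). Of the 12 fits that left out a library, 3 kept 2 calls and 7 had 1, and without R47H_control replicate 1 or R47H_induced replicate 3 there were 0 in edgeR. The slopes kept their sign in each of the 12 fits that left out a library, between 1.34 and 1.53 for Hmgn2.

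In the 12 WT libraries 4 immune genes were called beside Hmgn2 and Sytl1, and the calls rested on 1 library. Of 95 members 6 were called (6.32%, against 1.60% of all genes): Hmgn2 with a positive slope of 0.93 ± 0.18 (adjusted p = 0.00777; edgeR), and Cd52, Ptafr, Cnr2, Themis2 and Sytl1 with negative ones. Cd52, a surface glycoprotein of lymphocytes and myeloid cells, had 0.464 to 0.790 CPM in 5 WT_induced libraries and 5.38 in replicate 6. Ptafr, the receptor for platelet-activating factor, had at most 1.40 CPM there and 3.12 in replicate 6, and Cnr2, a cannabinoid receptor of immune cells, had 0.082 to 0.259 and 1.30. Themis2, a signalling protein of B cells and macrophages, had 0.628 to 1.18 CPM and 2.78 in replicate 6. The library in which these immune genes were high was also the one with more microglial and proliferation marker RNA. In bulk RNA more cells of a type and more RNA per cell cannot be told apart. At an unadjusted p below 0.05 there were 18 of 95 members (18.9%, against 9.12%), and without replicate 6 none was called by edgeR, with 5 at an unadjusted p below 0.05 (5.26%, against 3.50%). Without replicate 6 the slope of Hmgn2 among WT libraries was 0.91 ± 0.54 (adjusted p = 0.997; edgeR) and that of Sytl1 -3.06 ± 2.10, both with wide errors. The slope of Cd52 turned from -6.49 ± 0.65 to 0.98 ± 2.52 and that of Themis2 from -3.34 ± 0.66 to 2.15 ± 2.25.

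Genes outside the region with the lowest p in the slope fit over 24 libraries were Ifi204, Gm4951, AI607873, Usp18 and Gm10036. Ifi204, an interferon-inducible gene on chromosome 1, had a slope of -7.02 ± 0.88 (adjusted p = 7.32e-05; edgeR), which became -1.67 ± 1.35 without WT_induced replicate 6. Usp18, an interferon-induced protease, moved from -4.14 ± 0.66 to -2.11 ± 0.88. Of close relatives of the 5 genes elsewhere in the genome, the slope fit called 0 of 3 stathmins, 0 of 3 HMGN genes, 0 of 6 14-3-3 genes, 0 of 2 ASK kinases and 0 of 10 selenoproteins. With 0.188% of all genes called, so few relatives would rarely hold a call, and nothing is read from these counts. At an unadjusted p below 0.05 in edgeR there were 2 of the 10 selenoproteins and 0 of the other relatives, against 6.44% of all genes. Stmn3 had a slope of 0.09 ± 0.09 and Hmgn3 of -0.05 ± 0.13. Of the 6 markers of immature neurons, cells rich in Stmn1, the fit called 0, and nothing is read from this count either. In the slope fit of the R47H libraries, 2 of the 6 had an unadjusted p below 0.05 in edgeR, against 2.91% of all genes. Their summed level was 411 to 462 CPM in R47H_induced and 382 to 422 CPM in WT_control. The other groups lay at 388 to 429 CPM (WT_induced) and 410 to 452 CPM (R47H_control). Whether the number of such cells differed was not tested.

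Induction in WT mice used none of the libraries from which the region was proposed. Stmn1 differed by -0.09 ± 0.09 on the log2 scale (adjusted p = 0.864), or by -0.03 without WT_induced replicate 6, Hmgn2 by 0.04 ± 0.12 and Map3k6 by -0.14 ± 0.15 in edgeR. None of the 99 members was called by edgeR (0.0% of all genes), DESeq2 or limma-voom, with 7 members at an unadjusted p below 0.05 in edgeR (7.07%, against 7.85% of all genes).

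Induction in R47H mice proposed the region, so its values are a description. The difference was -0.47 ± 0.09 for Stmn1, -0.53 ± 0.12 for Hmgn2, -1.07 ± 0.22 for Sfn, -0.69 ± 0.16 for Map3k6 and 0.24 ± 0.06 for Sepn1. No member was called by edgeR (0.0% of all genes) or limma-voom. DESeq2 called 4 of 99 members, beside 4 of all 19678 tested genes. At an unadjusted p below 0.05 in edgeR there were 27 of 99 (27.3%, against 5.11%). The difference of the 2 inductions shares these libraries: no member was called by edgeR (0.0%), DESeq2 or limma-voom, with 19 of 99 at an unadjusted p below 0.05 in edgeR (19.2%, against 7.94%). Since the region was chosen from these libraries, nothing is read from either count.

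R47H and WT mice differed over the region without tamoxifen in a few genes. This comparison shares the R47H_control libraries with the one that proposed the region. Slc30a2, a zinc transporter, stood at 3.44 to 4.73 CPM in WT_control and 2.25 to 3.10 in R47H_control, with no overlap, a difference of -0.59 ± 0.10 (adjusted p = 0.000429; edgeR). Nudc (51.9 to 56.1 against 57.4 to 67.6 CPM), Sytl1, Phactr4, a regulator of actin and protein phosphatase 1, and Fuca1, a lysosomal fucosidase outside the rule for named genes, were higher in R47H by 0.21 ± 0.04, 1.21 ± 0.25, 0.28 ± 0.07 and 0.17 ± 0.04. Nudc did not overlap between the groups. The 5 calls were 5.05% of 99 members, against 5.74% of all genes, and so near the background. The share of rRNA-like reads, taken as the counts of Yam1, AY036118 and Lars2, was 11.5% to 20.1% in WT_control and 17.1% to 24.4% in R47H_control. It stands in for rRNA, which was not measured directly. With this share as a covariate 2 members were called. With library totals in place of TMM scaling the split of 4 higher and 1 lower became 2 and 3.

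With tamoxifen the R47H mice differed from WT in 18 of 99 members (18.2%, against 5.80% of all genes), 9 of them higher and 9 lower in R47H. This comparison shares the R47H_induced libraries with the one that proposed the region, so the share is a description, and the 5 genes that proposed it are given without p-values. All 5 were among the 18. Without them 13 of 94 were called (13.8%), 8 higher and 5 lower. The 5 lower include Gm26615, which had no count above 10 in R47H_induced and became a member through the other groups. Summed striatal markers stood at 601 to 701 CPM in R47H_induced and 714 to 803 in WT_induced, with no overlap, and their part in these differences was not tested. The median difference was 0.02 on the log2 scale over members and 0.00 over all genes, and the median of its absolute size was 0.11 and 0.08, so the members did not move in one direction. The number called ran from 16 to 21 over the alternatives at this threshold and was 25 at an adjusted p below 0.1. Over all genes the 1142 calls became 1853 at an adjusted p below 0.1. They became 1507 with DESeq2 (20 members), 795 with library totals (17 members) and 763 without both WT_induced replicate 6 and R47H_induced replicate 3 (20 members).

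Of genes of the cytoskeleton and of transport, 4 of 17 were higher and 1 lower in R47H_induced than in WT_induced. Between these groups 5.8% of all genes and 18.2% of members were called. Stmn1, Hmgn2, Sfn, Map3k6 and Sepn1, which proposed the region, are among the calls of this list and of those below. The counts by list are therefore a description. The difference of Stmn1 was -0.54 ± 0.09 on the log2 scale. Sytl1 was higher by 1.67 ± 0.24, the largest rise in the region among the called genes, and Nudc by 0.29 ± 0.04, with 51.7 to 57.4 CPM in WT_induced and 63.1 to 71.9 in R47H_induced. Phactr4 rose by 0.43 ± 0.07, from 8.74 to 11.1 CPM in WT_induced to 11.2 to 13.6 in R47H_induced, and Ubxn11, a protein with a ubiquitin-like domain, by 0.27 ± 0.07. The most abundant gene of this list, the endosomal syntaxin Stx12, differed by 0.05 ± 0.03 and was not called.

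Among 15 genes of chromatin and transcription, Hmgn2 was lower (-0.73 ± 0.12) and Pithd1 higher (0.22 ± 0.04). Pithd1 stood at 46.3 to 50.5 CPM in WT_induced and 52.0 to 61.2 in R47H_induced, with no overlap. Arid1a, a subunit of the BAF chromatin remodelling complex and the most abundant of the list, differed by -0.04 ± 0.04. None of 11 RNA processing genes was called by edgeR, 5 of them lying at an unadjusted p below 0.05, as did 20.1% of all genes; Rsrp1, the highest of them, differed by 0.10 ± 0.03 (adjusted p = 0.0847).

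Of 7 kinases and stress genes, the 2 called were both among the genes that proposed the region: Sfn differed by -1.15 ± 0.22 and Map3k6 by -0.95 ± 0.15. In metabolism, endoplasmic reticulum and lysosome, 1 of 15 was higher, Sepn1 by 0.37 ± 0.06, and 2 were lower, Tmem222, a membrane protein, by -0.15 ± 0.04 and Man1c1, a Golgi mannosidase outside the rule for named genes, by -0.15 ± 0.04. Nipal3, a magnesium transporter relative, differed by -0.01 ± 0.03. None of 6 immune and blood genes was called by edgeR, with 1 at an unadjusted p below 0.05 (20.1% of all genes).

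Of members in no list, the lincRNA Gm26615 (133085474 to 133089146) had 0.0456 to 0.601 CPM in WT_induced and 0.0221 to 0.168 in R47H_induced, a difference of -2.18 ± 0.45. It exceeded a count of 10 in 12 libraries and in none of R47H_induced, so it became a member through the other groups, and its difference is a description. Its lowest WT_induced value was again that of replicate 6. Slc30a2 was lower by -0.79 ± 0.10, from 3.55 to 4.20 CPM in WT_induced to 1.89 to 2.74 CPM in R47H_induced. Grrp1, a glycine- and arginine-rich protein, was lower by -0.95 ± 0.21. Pafah2, an enzyme that breaks down platelet-activating factor, was higher by 0.48 ± 0.09, and Aim1l by 0.73 ± 0.18.

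The genes beside Stmn1 did not all share its difference. Upstream, 1700021N21Rik, annotated as an antisense RNA, rose by 1.11 ± 0.21, from 0.196 to 0.456 CPM in WT_induced to 0.642 to 0.918 in R47H_induced, and Pafah2 was higher, while Extl1, an exostosin-like glycosyltransferase, differed by 0.07 ± 0.05. Downstream, Paqr7, a membrane progestin receptor, differed by 0.01 ± 0.05 and Mtfr1l, a mitochondrial fission regulator relative, by -0.04 ± 0.04, and then Sepn1 was higher.

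**Figure D3:**
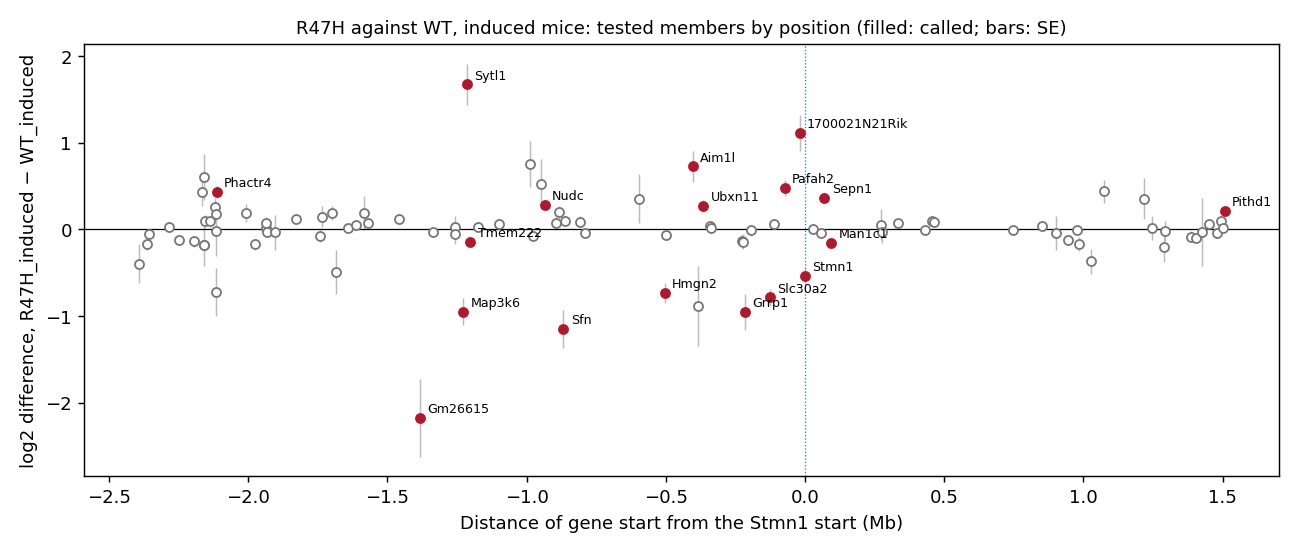
log2 difference of R47H_induced from WT_induced (points, with SE as bars) for each tested member against the distance of its start from the Stmn1 start in Mb. The 18 filled and named points passed adjustment, from Gm26615 at -2.18 to Sytl1 at 1.67, with rises and falls side by side.

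Each library was placed for each of the 18 genes on a scale from 0, the WT_control median, to 1, the R47H_induced median; since the genes were called with the induced libraries and the R47H_control libraries took part in proposing the region, the scale is a description. The median over the 18 genes was -0.07 to 0.04 in 5 WT_induced libraries and 0.41 in replicate 6. In R47H_control it was 0.14 in replicate 3, 0.34 in replicate 1, 0.38 in replicate 4 and 0.54 to 0.62 in the other 3. R47H_induced replicate 3 stood at 0.60, and the other 5 libraries at 0.99 to 1.07. For the 1124 called genes elsewhere in the genome the same medians were 0.66 to 0.88 in R47H_control, 0.98 in R47H_induced replicate 3 and -0.17 in WT_induced replicate 6. The difference between both sets of genes was not tested.

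**Figure D4:**
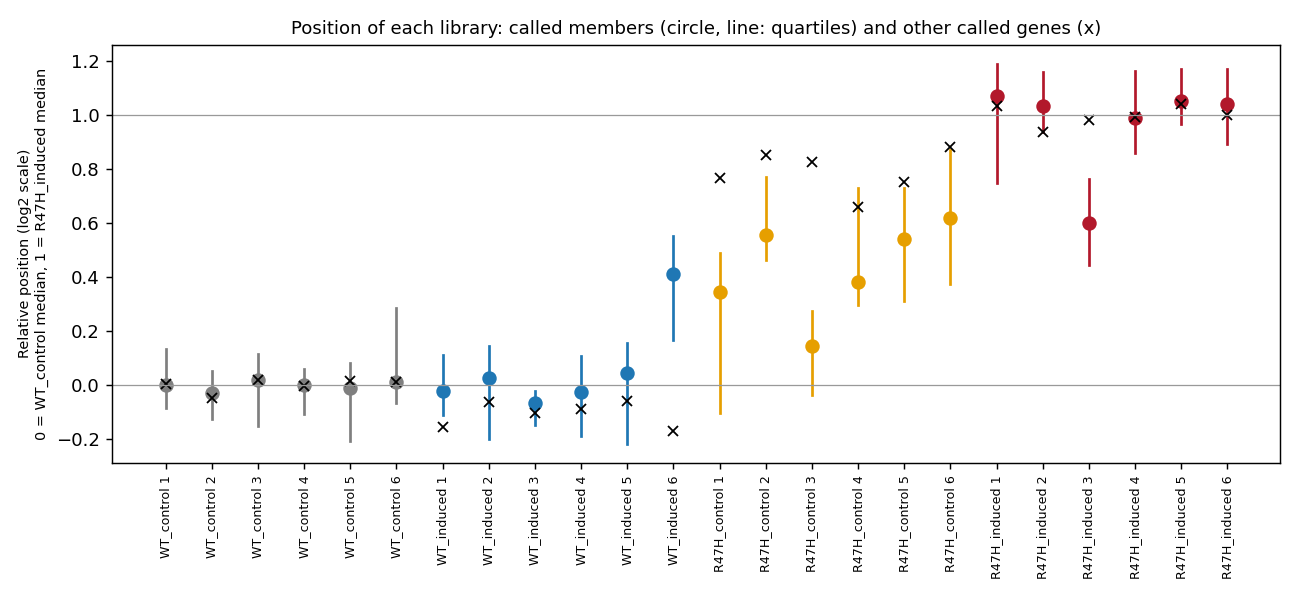
Position of each of 24 libraries between the WT_control median (0) and the R47H_induced median (1) on the log2 scale, as the median over the 18 called members (circles, quartiles as lines) and over 1124 other called genes (crosses). For members, R47H_induced replicate 3 lies at 0.60 and WT_induced replicate 6 at 0.41, against 0.98 and -0.17 for the other genes.

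The libraries were also divided, for each gene, at the widest gap in level that left at least 4 libraries on each side. For Stmn1 that set 5 R47H_induced libraries, all but replicate 3, against the other 19. The same division, with at most 2 libraries placed otherwise, was found in 10 of 98 members (10.2%, against 0.254% of all genes): Hmgn2, Pithd1, Map3k6, Pafah2, Sepn1, Cnr2, Phactr4, Snhg12, 1700021N21Rik and Gm26615, of which Snhg12 lies outside the rule for named genes. This count uses the differences between groups from which the region was proposed, and is a description.

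Calls were not spread evenly along chromosome 4. In windows of 4 Mb, R47H and WT induced mice differed in 17 of 98 genes within 2 Mb of the Stmn1 start (17.3%) and in 16 of 85 genes 2 to 6 Mb before it (18.8%), but in 1 of 58 genes 2 to 6 Mb after it (1.72%) and in 5.72% of genes on other chromosomes. For the slope on Stmn1 without WT_induced replicate 6, an unadjusted p below 0.05 was found for 15.2% of genes within 2 Mb, 9.41% of genes 2 to 6 Mb before, 3.33% of genes 2 to 6 Mb after and 28.9% of 45 genes 10 to 14 Mb after Stmn1, against 3.29% on other chromosomes. The region was therefore not the only stretch of the chromosome with a high share. Stmn1 was left out of these shares, but other genes that proposed the region are among those within 2 Mb. The R47H_induced libraries also took part in proposing it, so the shares are a description.

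**Figure D5:**
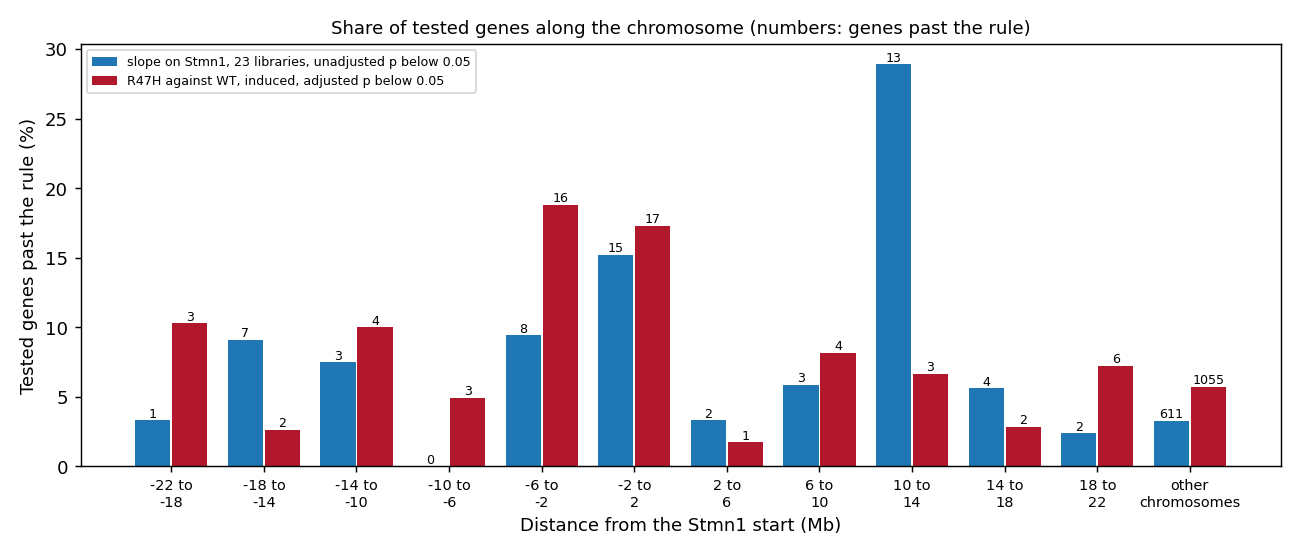
Share of tested genes (%, from 0) in windows of 4 Mb by distance from the Stmn1 start and on other chromosomes, for the slope on Stmn1 over 23 libraries (blue) and for R47H against WT in induced mice (red), with the number of genes above each bar. The shares within 2 Mb are 15.2% and 17.3%, and the highest slope share, 28.9%, lies 10 to 14 Mb after Stmn1. Stmn1 is left out, and the genes within 2 Mb include others that proposed the region.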

How the data were processed

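Cortex RNA of 24 mice was prepared with a poly-A kit that does not mark strand (TruSeq v2, per the labels' protocols). Values are raw counts of reads per gene as deposited by the authors. STAR 2.5.2b, featureCounts 1.5.1 and mm10 appear in the submitters' processing notes. How strand was treated, and which annotation was counted, was not stated there. Without strand, reads of overlapping genes cannot be told apart; 26 members had an exon overlapped by another gene in GENCODE vM21, among them Stmn1 (3.43% of its exon bases), Cd52 (14.5%) and Nipal3 (7.35%).

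Groups came from the genotype and treatment labels. Replicate numbers follow accession order and pair nothing. After TMM scaling, the counts entered edgeR 4.0.16 (quasi-likelihood test with robust spread, R 4.3.3), in 1 fit over 24 libraries for 5 comparisons and in 3 slope fits (24 libraries, 12 R47H, 12 WT) with the deviation of log2 CPM of Stmn1 from its group mean as covariate. Benjamini-Hochberg adjustment ran over all tested genes of a fit (19678 in the comparisons), with calls made below 0.05. CPM values here use the TMM-scaled total. Log2 values carry the SE of the fit, and p-values set each difference or slope against the spread between mice within groups. The scripts were tested on simulated data.

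Members, lists and tests were chosen with earlier results of these data known. Named genes are the 5 genes that proposed the region, called members up to the 20 with the lowest p in the slope fit, 3 neighbours on each side of Stmn1, the most abundant member of each list (1 such gene is not reported here), the 5 outside genes with the lowest slope p, and relatives of the 5 genes elsewhere. Alternatives were DESeq2 1.42.0, limma-voom (limma 3.58.1), other scalings and filters, covariates for sex (Y-linked genes against Xist) and for the rRNA-like share, other index genes, and each library left out.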

Additional observations from a re-analysis of the deposited data

Results flagged for a closer look

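In 112 groups of 6 libraries (28 named members in 4 groups), a library far from the other 5 of its group was found 12 times. Chance flags about 1 in 20 groups, but many of these members were named for calls in the same libraries. The groups also share libraries, so the 12 are a description and cannot be set against that rate. WT_induced replicate 6 accounted for 7 of them: it was far below its group in Stmn1 (86.1 CPM) and Hmgn2 (17.2 CPM) and far above it in Cd52 (5.38 CPM), Ptafr (3.12 CPM), Themis2 (2.78 CPM), Cnr2 (1.30 CPM) and Phactr4 (11.1 CPM). R47H_induced replicate 3 was far above its group in Stmn1 (98.5 CPM) and Hmgn2 (18.2 CPM). The remaining 3 fell on other libraries: Themis2 in R47H_control replicate 2 (1.30 CPM), Ubxn11 in WT_control replicate 6 (14.7 CPM) and 1700021N21Rik in R47H_induced replicate 2 (0.918 CPM), each above its group.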

How the results depend on the processing

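Among counts of members under an alternative, 224 stayed within 1.5 times the reported count, while 12 were higher, 27 lower and 1 moved. For R47H induction the 0 members called became 4 with DESeq2, 0 to 2 without 1 library and 5 without both WT_induced replicate 6 and R47H_induced replicate 3. Leaving out both was chosen after seeing the data, and the difference of inductions then gave 1. Over all tested genes R47H induction gave 4 calls with DESeq2 and 5 without both libraries, and the difference of inductions gave 1 without both. The region was proposed from R47H induction, so nothing is read from these counts. For R47H against WT in control mice the 5 became 11 at an adjusted p below 0.1, 8 with a filter of 1 CPM in 6 libraries, with DESeq2 or with only the 12 control libraries, 2 with the rRNA-like covariate and 5 to 8 without 1 library (8 without R47H_induced replicate 1). Over all genes the 1129 calls became 1953 at an adjusted p below 0.1, 1471 with DESeq2 and 451 with the rRNA-like covariate. For the slope over 24 libraries the 2 became 2 to 6 without 1 library (6 without R47H_induced replicate 3), and 1, 0, 0 and 0 with Hmgn2, Sfn, Map3k6 and Sepn1 in place of Stmn1. With library totals 2 were positive and 1 negative. Over all genes the 37 calls of this slope became 179 without R47H_induced replicate 3 and 48 with library totals. In R47H libraries the 2 became 1 with library totals (positive), limma-voom or the rRNA-like covariate, 0 to 2 without 1 library, and 1, 0, 0 and 0 with the other index genes. In WT libraries the 6 became 13 with library totals (8 positive, 5 negative), 2 with the 1 CPM filter, 1 with the rRNA-like covariate, 0 to 7 without 1 library (0 without WT_induced replicate 6), and 2, 0 and 0 with Sfn, Map3k6 and Sepn1 as index. Over all genes the 305 calls in WT libraries became 1253 with library totals, 98 with the rRNA-like covariate and 0 without WT_induced replicate 6. With at least 6 libraries on a side, WT_induced replicate 6 joined the lower side of the gap division for Stmn1. That division matched in 5 of 98 members (5.1%, against 0.0711% of all genes). Signs reversed for Hmgn2 under WT induction with library totals (-0.0015), for Sepn1 under WT induction (0.0002 with a filter of 10 counts in 1 library, 0.0007 with the sex covariate, -0.0354 to 0.0228 without 1 library), for the slope of Sepn1 in R47H libraries on Map3k6 (0.0022), and without WT_induced replicate 6 for WT slopes, which ran without 1 library from -1.0004 to 2.0856 for Sfn, -0.4646 to 0.8519 for Map3k6, -6.7635 to 0.977 for Cd52 and -3.6968 to 2.1546 for Themis2. The causes were not tested, save where fewer libraries or genes enter by construction. No paired analysis was possible because replicate numbers follow accession order. At levels under 1 CPM (Gm26615, Cnr2, 1700021N21Rik) few reads limit the values.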
